A study of Homo sapiens with 6 samples.

Results

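Autophagy genes were followed in RNA-seq of JHH-4, a cell line from human hepatocellular carcinoma, with and without overexpression of hsa-miR-372-3p. The genes were the 43 of 12396 genes with an ID in the deposited count table whose symbol names a core component of autophagy: the ATG genes, the ULK kinases and their partners, the class III phosphatidylinositol 3-kinase complexes, the ATG8 family, cargo receptors and late factors. The groups were 3 miR372_3p libraries, from JHH-4 cells given a plasmid that codes for the primary transcript of the microRNA, and 3 Control libraries, from JHH-4 cells labelled as wild type. All cells were grown in EMEM with serum, and no label says what plasmid, if any, the Control cells carried. The microRNA's own level was not analysed here. The series calls the replicates technical, so p-values measure only the spread between these libraries, all from a single cell line.

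Autophagy encloses cytoplasm in a double membrane that grows into an autophagosome and fuses with the lysosome. The ULK complex starts the process, a lipid kinase complex marks the membrane with phosphatidylinositol 3-phosphate, lipid is supplied by ATG9 vesicles and ATG2, and ubiquitin-like conjugation attaches proteins of the ATG8 family to the membrane. Cargo receptors such as SQSTM1 (p62) bind both ubiquitin and ATG8 proteins and are themselves degraded with their cargo. In liver, autophagy turns over mitochondria, protein aggregates and lipid droplets. RNA levels do not measure autophagic flux.

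Total counts ran from 51072581 to 60070397 in miR372_3p libraries and from 46851245 to 47890069 in Control libraries. Control replicate 3 stood apart from the other Control libraries on the second principal component (22.0, against −14.5 and −7.27), which held 10.2% of the variance. Of 15 hepatocyte markers 7 were measured, with a summed level of 97.7 to 101.8 CPM (counts scaled to library size) in miR372_3p libraries and 110.3 to 119.9 CPM in Control libraries. ALB, AFP, APOA1 and 5 other hepatocyte markers were not analysed here. The epithelial keratins KRT8, KRT18 and KRT19 summed to 6248.4 to 6494.9 CPM in miR372_3p libraries and 3382.2 to 3489.8 CPM in Control libraries. Of 12 markers of blood, endothelial and stromal cells 4 were measured (COL1A1, COL1A2, PDGFRB and CD14), and they summed to 83.1 to 91 CPM in miR372_3p libraries and 14.8 to 18.8 CPM in Control libraries. Most of that sum in miR372_3p libraries was COL1A1, with a mean of 64.0 CPM, against 4.84 CPM in Control libraries. PTPRC and PECAM1 were not analysed here. The part of these markers in the results on autophagy genes was not tested, and in bulk RNA fewer cells of a type cannot be told apart from less RNA per cell.

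The comparison asked which steps of autophagy changed in RNA level with the microRNA. GABARAPL1, an ATG8 protein, rose 2.73-fold and changed most. Parts of the initiation machinery (ULK1, RB1CC1, PIK3C3 and ATG14) rose by 1.25-fold to just under 1.5-fold, whereas ATG10, GABARAP, ATG3 and the cargo receptor SQSTM1 fell. Of the 43 genes, 16 rose, 11 fell and 16 did not pass the test (edgeR's quasi-likelihood test, adjusted p under 0.05 over all genes). These are 37.2% and 25.6% of the autophagy genes, beside 26.8% higher and 27.7% lower among all 12396 genes, so many genes of any kind passed in these libraries. In either direction 62.8% of the autophagy genes passed, and 54.5% of all genes. The median log2 fold change was 0.081 over the autophagy genes and 0.001 over all genes, and the median absolute value was 0.202 and 0.217.

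Most of these changes were small. At a change of at least 1.5-fold, 2 autophagy genes were higher (GABARAPL1 and MAP1LC3B2), beside 7.11% of all genes, and 1 was lower (ATG10), beside 8.46% of all genes. In 30 of the 43 genes (69.8%) the CPM values of the groups did not overlap, beside 62.2% of all genes. All miR372_3p values were the higher ones in 18 of the 43, beside 30.7% of all genes, and the lower ones in 12 of the 43, beside 31.4% of all genes. The 43 genes together made up 0.376 to 0.383% of counts in miR372_3p libraries and 0.384 to 0.396% in Control libraries. SQSTM1 alone held 34.5 to 34.9% of that sum in miR372_3p libraries and 40.2 to 41.2% in Control libraries. Without SQSTM1 the other autophagy genes summed to 2511.9, 2473.5 and 2466.4 CPM in miR372_3p libraries, against 2299.2, 2310.0 and 2294.3 CPM in Control libraries.

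**Figure D1:**
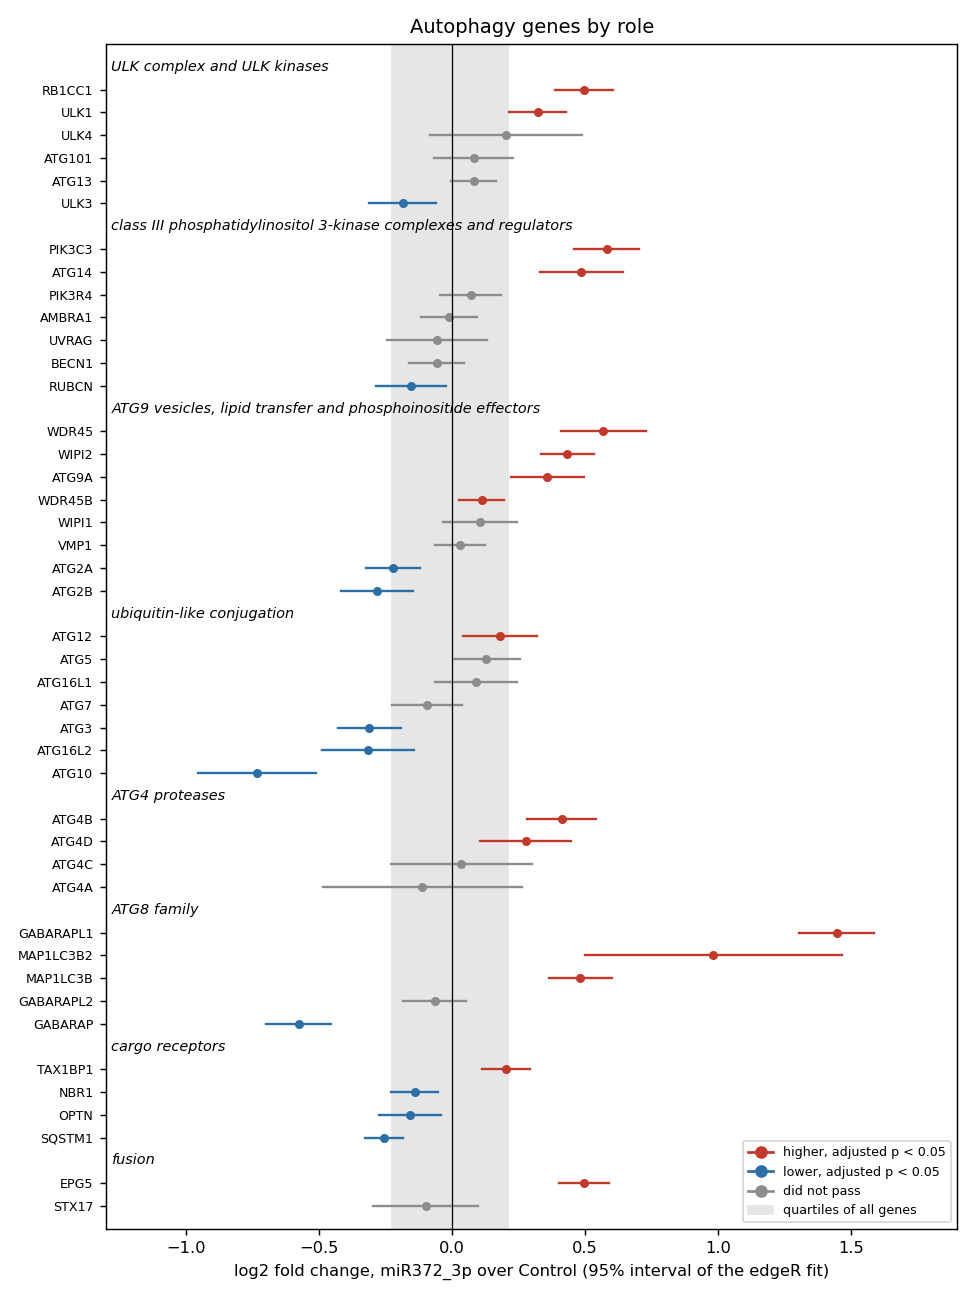
Log2 fold change of miR372_3p over Control for each of the 43 autophagy genes (points) with the 95% interval of the edgeR fit (lines), ordered within roles, with the quartiles of all genes tested shaded. GABARAPL1 stands at 1.45 and ATG10 at −0.73, while most other genes lie within 0.6 of zero.

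Among the ULK genes, the scaffold and the kinase rose while their partners moved less. RB1CC1 (FIP200, the scaffold of the ULK complex; ENSG00000023287, chromosome 8, GRCh38) had 77.7, 73.7 and 80.4 CPM in miR372_3p libraries, against 56.0, 53.4 and 54.9 CPM in Control libraries. The groups did not overlap, and the log2 fold change was 0.50 (standard error 0.0485, edgeR adjusted p = 2.11e-05). ULK1, the kinase that phosphorylates the downstream factors, had 67.3, 68.4 and 63.5 CPM in miR372_3p libraries, against 53.3, 54.2 and 51.8 CPM in Control libraries. It rose 1.25-fold (log2 fold change 0.32 ± 0.0475 SE, edgeR adjusted p = 0.000314). ATG13 and ATG101, the adaptors that complete the complex, did not pass, with a log2 fold change of 0.08 for each and 95% intervals of 0 to 0.17 and −0.07 to 0.23. Without Control replicate 3, ATG101 passed at 0.15 (edgeR adjusted p = 0.0275). ULK3, a related kinase outside the complex, was lower at −0.19 (edgeR adjusted p = 0.0188), and its adjusted p lay between 0.0577 and 0.0834 without miR372_3p replicate 1, miR372_3p replicate 3 or Control replicate 1. ULK4, a pseudokinase, did not pass (0.20, 95% interval −0.08 to 0.49), and ULK2 was not analysed here.

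In the class III phosphatidylinositol 3-kinase complexes, the catalytic subunit and the autophagy-specific subunit rose. PIK3C3 (VPS34, the lipid kinase; ENSG00000078142, chromosome 18, 41955206 to 42087830, plus strand, GRCh38) had 61.6, 58.7 and 55.9 CPM in miR372_3p libraries, against 38.2, 38.0 and 41.5 CPM in Control libraries. Every miR372_3p library was above every Control library (log2 fold change 0.58 ± 0.0551 SE, edgeR adjusted p = 1.74e-05). ATG14, which directs the kinase to sites of autophagosome formation, had 31.3, 31.0 and 33.3 CPM in miR372_3p libraries, against 21.8, 24.9 and 21.6 CPM in Control libraries. It rose 1.4-fold (0.49 ± 0.0699 SE, edgeR adjusted p = 0.000268). The shared subunits BECN1 (−0.06, 95% interval −0.16 to 0.04) and PIK3R4 (0.07, −0.04 to 0.19) did not pass. Neither did UVRAG, which takes the place of ATG14 in the endosomal complex (−0.05, −0.24 to 0.13), nor the regulator AMBRA1 (−0.01, −0.12 to 0.09). RUBCN (Rubicon), an inhibitor of the UVRAG complex, was lower at −0.15 with an edgeR adjusted p of 0.0496. That call was lost in 10 of the 14 alternative settings, with adjusted p up to 0.267, and among these without any 1 library other than Control replicate 2.

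Levels of different genes were compared per length, in the deposited FPKM (fragments per kilobase of transcript, scaled to sequencing depth). Such levels depend on the length used for each gene, and only FPKM was used for the ratios here. On that scale the ratio of ATG14 to UVRAG was 1.78, 1.94 and 1.87 in miR372_3p libraries, against 1.24, 1.3 and 1.35 in Control libraries. The ratio of PIK3C3 to PIK3R4 was 0.952, 0.881 and 0.816 in miR372_3p libraries, against 0.567, 0.608 and 0.662 in Control libraries. Neither ratio overlapped between groups. They were chosen after the fold changes of their genes were seen and were not tested.

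Among genes that supply lipid to the growing membrane, ATG9A rose, both ATG2 genes fell and VMP1 did not pass. ATG9A, the lipid scramblase of the vesicles that seed autophagosomes, had 112.3, 105.1 and 103.6 CPM in miR372_3p libraries, against 77.6, 91.0 and 81.8 CPM in Control libraries (log2 fold change 0.36 ± 0.0614 SE, edgeR adjusted p = 0.000812). Its groups did not overlap, but 38.8% of its annotated exonic bases also belong to AC068946.2 on the same strand, so its count is uncertain. The lipid transfer proteins ATG2A and ATG2B, which bridge the endoplasmic reticulum and the growing membrane, fell instead. ATG2A averaged 62.0 ± 1.2 CPM in miR372_3p libraries and 72.3 ± 2.22 CPM in Control libraries (SD, n = 3 each), a log2 fold change of −0.22 (edgeR adjusted p = 0.00214). ATG2B averaged 22.9 ± 1.2 CPM in miR372_3p libraries and 27.9 ± 0.526 CPM in Control libraries, at −0.28 (edgeR adjusted p = 0.00307). VMP1, a scramblase of the endoplasmic reticulum, did not pass (0.03, 95% interval −0.07 to 0.12). ATG9B was not analysed here.

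Of the 4 genes of the WIPI family, whose proteins bind phosphatidylinositol 3-phosphate, 3 passed as higher, beside 26.8% of all genes, and the call of 1 of these, WDR45B, was not stable. WIPI2, which recruits ATG16L1, had 151.5, 146.8 and 147.0 CPM in miR372_3p libraries, against 113.7, 112.2 and 103.7 CPM in Control libraries. The groups were well separated (0.43 ± 0.044 SE, edgeR adjusted p = 2.76e-05). WDR45 (WIPI4), a partner of ATG2 whose loss causes a neurodegenerative disease, had 42.1, 39.4 and 42.3 CPM in miR372_3p libraries, against 25.3, 27.3 and 30.8 CPM in Control libraries. It rose 1.48-fold (0.57 ± 0.0716 SE, edgeR adjusted p = 0.000114). Of the exonic bases of WDR45, 13.9% are shared with PRAF2 on the same strand, so its count is uncertain. WDR45B (WIPI3) was higher by 0.11 (edgeR adjusted p = 0.0325), a call lost without miR372_3p replicate 1 or 2 or Control replicate 1 or 2 and in FPKM (adjusted p from 0.0741 to 0.125). WIPI1 did not pass (0.11, 95% interval −0.03 to 0.25).

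**Figure D2:**
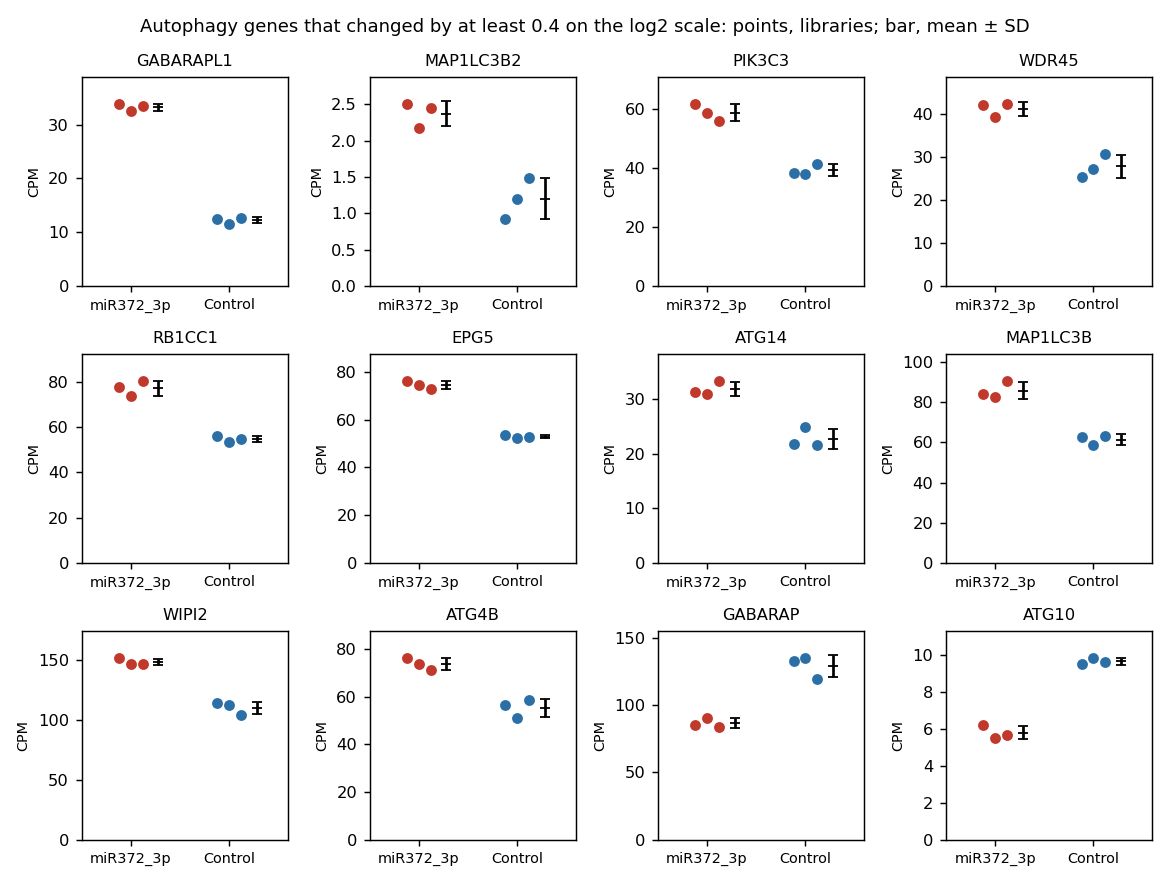
Normalised counts (CPM, axis from 0) in each library for the 12 autophagy genes that passed the test and whose log2 fold change was 0.4 or more in size, miR372_3p left and Control right, with mean ± SD (n = 3). Of the 12, 10 were higher in miR372_3p. The groups overlap in none of them, but the genes were chosen by these same values, so that is no separate result. The CPM values of the groups did not overlap in 62.2% of all genes.

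Of the 7 genes of ubiquitin-like conjugation, 3 fell, 1 rose and 3 did not pass, beside 27.7% lower and 26.8% higher among all genes. ATG10, the E2-like enzyme that joins ATG12 to ATG5 (ENSG00000152348, chromosome 5, 81972025 to 82276857, plus strand, GRCh38), had 6.2, 5.5 and 5.69 CPM in miR372_3p libraries, against 9.5, 9.83 and 9.62 CPM in Control libraries. No other autophagy gene fell as far (1.66-fold, log2 fold change −0.73 ± 0.0987 SE, 95% interval −0.95 to −0.51, edgeR adjusted p = 0.000174). ATG3, the E2-like enzyme that transfers ATG8 proteins to lipid, averaged 52.1 ± 3.06 CPM in miR372_3p libraries and 64.6 ± 1.27 CPM in Control libraries (SD, n = 3 each; −0.31, edgeR adjusted p = 0.000764). Both E2-like enzymes were therefore lower. ATG7, the E1-like enzyme that serves them, did not pass (−0.09, 95% interval −0.22 to 0.04).

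The acceptor and the modifier of the ATG12 conjugate moved little. ATG12, the ubiquitin-like modifier, was higher at 0.18 (edgeR adjusted p = 0.0334), a call lost without Control replicate 1, miR372_3p replicate 1 or miR372_3p replicate 3 (adjusted p 0.0954 to 0.135) and in deposited FPKM (limma adjusted p = 0.0943). ATG5, its acceptor, did not pass (0.13, 95% interval 0 to 0.26), although it did without miR372_3p replicate 2 (edgeR adjusted p = 0.0467). ATG16L1, which places the conjugate on the membrane, did not pass either (0.09, −0.06 to 0.24), but did at 0.17 without Control replicate 3 (edgeR adjusted p = 0.0184). Its paralog ATG16L2 fell to 13.0 ± 0.775 CPM in miR372_3p libraries, against 16.2 ± 0.642 CPM in Control libraries (−0.32, edgeR adjusted p = 0.00616).

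ATG4 proteases trim ATG8 proteins before conjugation and release them from lipid afterwards. ATG4B, the main human member, had 76.2, 73.6 and 71.4 CPM in miR372_3p libraries, against 56.5, 51.2 and 58.5 CPM in Control libraries. It rose 1.33-fold (0.41 ± 0.0574 SE, edgeR adjusted p = 0.000218). ATG4D also rose, averaging 26.3 ± 2.4 CPM in miR372_3p libraries and 21.7 ± 0.874 CPM in Control libraries (0.28, edgeR adjusted p = 0.0116). KRI1 on the opposite strand shares 15.0% of the exonic bases of ATG4D, and the kit does not mark strand, so its count is uncertain. ATG4A (2.93 CPM on average in miR372_3p libraries and 3.16 CPM in Control libraries) and ATG4C (14.7 and 14.4 CPM) did not pass.

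The ATG8 family held the largest rise and the second largest fall. GABARAPL1 (ENSG00000139112, chromosome 12, 10212458 to 10223130, plus strand, GRCh38) had 2026, 1641 and 1876 counts in miR372_3p libraries, against 581, 540 and 613 counts in Control libraries. In CPM these were 33.8, 32.5 and 33.5 in miR372_3p libraries and 12.4, 11.6 and 12.6 in Control libraries. Values within a group were close together and the groups far apart, with a log2 fold change of 1.45 ± 0.0629 SE (95% interval 1.31 to 1.59, edgeR adjusted p = 1.07e-07). The authors' deposited table also gives 1.45. An antisense gene, AC115676.1, shares 8.05% of its exonic bases, and the kit does not mark strand.

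GABARAP (ENSG00000170296, chromosome 17, 7240014 to 7242770, minus strand, GRCh38), the founding member of the GABARAP branch, went the other way. It had 85.2, 90.6 and 84.1 CPM in miR372_3p libraries, against 132.8, 135.0 and 119.7 CPM in Control libraries. It fell 1.49-fold (−0.58 ± 0.0542 SE, 95% interval −0.70 to −0.45, edgeR adjusted p = 1.65e-05). Of its exonic bases 30.5% are shared with AC120057.2 on the same strand, so its count and its share among ATG8 genes are uncertain. GABARAPL2 (GATE-16) had 36.7, 34.7 and 35.5 CPM in miR372_3p libraries, against 36.1, 36.1 and 39.5 CPM in Control libraries. Its groups overlapped and it did not pass (−0.06, 95% interval −0.18 to 0.05).

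MAP1LC3B (LC3B), the usual marker protein of autophagosomes, had 84.2, 82.8 and 90.5 CPM in miR372_3p libraries, against 62.8, 58.5 and 63.0 CPM in Control libraries. It rose 1.4-fold (0.48 ± 0.0523 SE, edgeR adjusted p = 4.22e-05). MAP1LC3B2 had 150, 110 and 137 counts in miR372_3p libraries, against 43, 56 and 72 counts in Control libraries, a log2 fold change of 0.98 ± 0.216 SE (edgeR adjusted p = 0.00351). The coding sequences of MAP1LC3B and MAP1LC3B2 are identical at 376 of 378 bases, so reads may have been assigned to either, and the value of MAP1LC3B2 is uncertain. GABARAP and GABARAPL1 share 76.8% of coding bases over 354 bases. MAP1LC3A, MAP1LC3C and GABARAPL3 were not analysed here.

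Per length, the shares of 4 of the 5 measured ATG8 genes did not overlap between groups. In CPM, 62.2% of all genes did not overlap either. The 5 shares of a library add up to the whole, so they and their p-values are not separate results. GABARAP stayed the most abundant ATG8 RNA in both groups, at 52.1 ± 1.69 FPKM in miR372_3p libraries and 79.5 ± 3.48 FPKM in Control libraries (SD, n = 3 each). Its share of the summed ATG8 FPKM was 38.3, 41.3 and 39.4% in miR372_3p libraries, against 57.5, 57.8 and 54.1% in Control libraries. GABARAPL1 held 11.5, 11.1 and 11.5% in miR372_3p libraries, against 3.93, 3.73 and 4.05% in Control libraries. MAP1LC3B held 22.4 ± 0.38% in miR372_3p libraries and 15.0 ± 0.406% in Control libraries. These shares, and that of MAP1LC3B2, did not overlap between groups, and each gave the smallest exact two-sided permutation p that 3 against 3 libraries allow, 0.1 (0.125 after Benjamini-Hochberg adjustment over the 5 genes). GABARAPL2 held 24.1 ± 0.91% in miR372_3p libraries and 23.5 ± 1.56% in Control libraries (exact permutation p = 0.6, adjusted 0.6). The family's sum was 131.9, 130.5 and 132.0 FPKM in miR372_3p libraries, against 143.5, 138.9 and 140.0 FPKM in Control libraries. The ratio of GABARAPL1 to GABARAP was 0.301, 0.269 and 0.291 in miR372_3p libraries, against 0.0684, 0.0646 and 0.0749 in Control libraries. It sets the largest rise over the second largest fall, so its separation follows from that choice, and it was not tested.

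**Figure D3:**
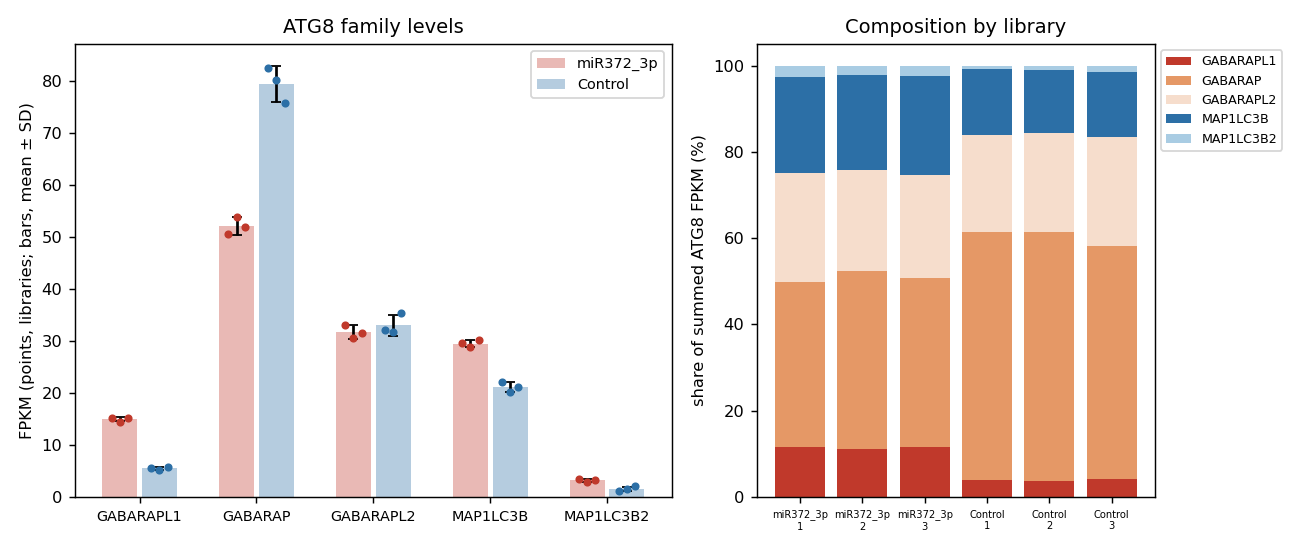
Left, deposited FPKM of the 5 measured ATG8 genes in each library (points) with mean ± SD (bars from 0, n = 3), miR372_3p left of Control. Right, the share of each gene in the summed ATG8 FPKM of every library, in which GABARAP holds 38.3 to 41.3% in miR372_3p and 54.1 to 57.8% in Control.

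Of the 4 cargo receptors, 3 were lower and 1 was higher, all by under 1.25-fold, beside 27.7% lower and 26.8% higher among all genes. SQSTM1 (p62; ENSG00000161011, chromosome 5, 179806398 to 179838078, plus strand, GRCh38), which links ubiquitinated cargo to ATG8 proteins, had 1326.9, 1325.3 and 1300.2 CPM in miR372_3p libraries, against 1548.8, 1559.1 and 1607.2 CPM in Control libraries. It fell 1.19-fold (−0.25 ± 0.032 SE, edgeR adjusted p = 0.000112) and remained the most abundant autophagy RNA in both groups, at 414 and 480 FPKM on average in miR372_3p and Control libraries. MRNIP on the opposite strand shares 20.7% of its exonic bases, and the kit does not mark strand, so the count of SQSTM1 is uncertain. NBR1, a receptor for aggregates and peroxisomes, was lower at −0.14 (edgeR adjusted p = 0.0126; limma on FPKM 0.0821). OPTN (optineurin), a receptor for mitochondria and bacteria, was lower at −0.16 (edgeR adjusted p = 0.0286), a call lost without Control replicate 1, miR372_3p replicate 1 or miR372_3p replicate 3 and in FPKM (adjusted p 0.0608 to 0.111). TAX1BP1, a receptor that acts with NBR1, rose to 160.8 ± 1.09 CPM in miR372_3p libraries, against 139.7 ± 5.85 CPM in Control libraries (0.20, edgeR adjusted p = 0.00191).

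EPG5, a tether that brings autophagosomes to late endosomes and lysosomes, had 76.2, 74.6 and 73.1 CPM in miR372_3p libraries, against 53.6, 52.5 and 52.6 CPM in Control libraries. It rose 1.41-fold with little spread (0.50 ± 0.0424 SE, edgeR adjusted p = 8.6e-06). STX17, the autophagosomal SNARE, did not pass (−0.10, 95% interval −0.29 to 0.10).

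Sequence matches to the microRNA were then set beside these values. A microRNA pairs with messenger RNAs through its seed, bases 2 to 8, in capitals below, and miR-373-3p and miR-302a-3p are shown because they carry the same seed. The mature sequences are from RefSeq (GRCh38.p14).
hsa-miR-372-3p: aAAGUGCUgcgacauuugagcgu
hsa-miR-373-3p: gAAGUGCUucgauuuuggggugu
hsa-miR-302a-3p: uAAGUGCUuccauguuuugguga

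Matches were sought in the longest annotated 3′ UTR of each gene (GENCODE 29): AGCACTT pairs with the whole seed (7mer-m8), AGCACTTA adds the A that makes an 8mer, GCACTTA is the 7mer-A1 and GCACTT the 6mer. None of the 43 autophagy genes held an 8mer, against 4.05% of the 12192 genes searched. A 7mer-m8 was the best match of 12 (27.9%), against 21.5% of all genes. The best match was a 7mer-A1 in 2 (4.65%, against 3.63% of all genes) and a 6mer in 9 (20.9%, against 11.4%). The other 20 (46.5%) had no match, against 59.4% of all genes. Of the 12 with a 7mer-m8, 6 rose (ATG12, ATG14, PIK3C3, RB1CC1, ULK1 and WDR45), 5 fell (ATG10, OPTN, RUBCN, SQSTM1 and ULK3) and ATG7 did not pass. Among all genes with that best match 27.2% rose and 29.7% fell. In the 8mer class, which held no autophagy gene, 21.1% of the 494 genes rose and 44.7% fell. Of the 20 autophagy genes with no match, 7 rose and 3 fell, and GABARAPL1 and MAP1LC3B, which rose, were among them. Among all 7245 genes with no match, 26.7% rose and 26.2% fell. GABARAP, which fell, held a 6mer.

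A 7mer-m8 match is shown for 5 of the 12 genes, some that fell and some that rose; the 5 do not stand for the matches of the others, which are not shown. Each is given with the match in capitals and 30 bases in all (GRCh38, strand of the gene).
SQSTM1, chr5:179837230-179837259, plus strand: taaatggcatcAGCACTTtaaccaatgacg
ULK3, chr15:74836975-74837004, minus strand: tctgggagaacAGCACTTctttcatgagac
ULK1, chr12:131921824-131921853, plus strand: tcaatcacccaAGCACTTtatgcatataga
WDR45, chrX:49074622-49074651, minus strand: cacttccccccAGCACTTcttgatgactgt
PIK3C3, chr18:42085108-42085137, plus strand: acctaacaaaaAGCACTTttctatataatg
SQSTM1 and ULK3 fell, and ULK1, WDR45 and PIK3C3 rose.

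**Figure D4:**
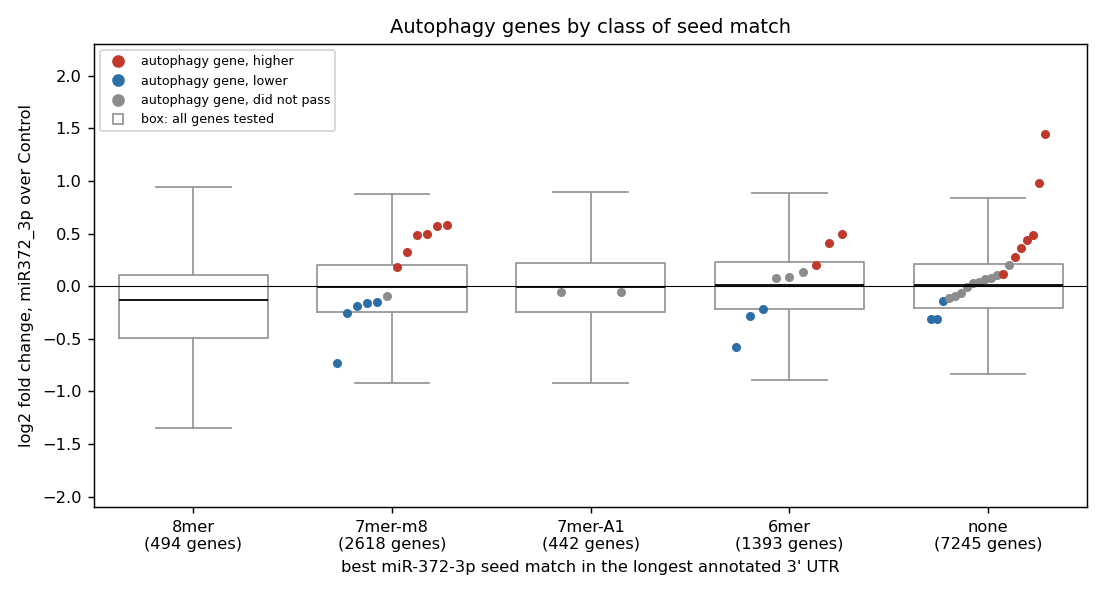
Log2 fold change of miR372_3p over Control for autophagy genes (points, coloured by call) by the best seed match in the 3′ UTR, over boxes of all genes tested in that class (median, quartiles, whiskers to 1.5 times the box). Genes that rose and genes that fell both occur with a 7mer-m8 (6 and 5), and no autophagy gene lies in the 8mer class.

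Promoters were searched for 2 short motifs. RefSeq promoter windows (250 bases before to 50 after the start, GRCh38.p14) were matched by symbol for 36 of the 43 genes. The E-box CACGTG, which reads the same on both strands and is bound by TFEB and many other factors, was in a window of 3 of the 36 (ATG14, ATG3 and ULK3; 8.33%), against 8.77% of the 27305 genes with a RefSeq promoter window, measured here or not. GTAAACA or its reverse complement TGTTTAC, a form bound by FOXO and other forkhead factors, was in 1 (WDR45; 2.78%), against 4.19% of the same 27305 genes.

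Beyond the core genes, 4 lists of autophagy-related genes were counted. Of 118 measured genes on these lists, 33 rose, 32 fell and 53 did not pass. In either direction 55.1% passed, close to the 54.5% of all genes. Among all genes 26.8% were higher and 27.7% lower. Upstream signalling (mTOR, AMPK, Rag GTPases and transcription factors) had 9 higher and 11 lower of 36 (25% and 30.6%). Its median log2 fold change was 0.003. PRKAA1, a catalytic subunit of the energy sensor AMPK that activates ULK1, had 55.5, 56.7 and 54.9 CPM in miR372_3p libraries, against 89.8, 95.3 and 86.4 CPM in Control libraries. It fell 1.62-fold (edgeR adjusted p = 2.25e-06). FOXO3, a transcription factor known to act on autophagy genes, had 80.7, 76.0 and 83.0 CPM in miR372_3p libraries, against 53.3, 56.5 and 56.5 CPM in Control libraries, and rose 1.44-fold (edgeR adjusted p = 1.83e-05). SESN3, a stress-induced activator of AMPK, fell to 1.96 ± 0.259 CPM in miR372_3p libraries, against 4.15 ± 0.682 CPM in Control libraries (−1.08, edgeR adjusted p = 0.000853). TFEB, a regulator of lysosomal genes, was low, at 1.3 ± 0.0767 CPM in miR372_3p libraries and 1.94 ± 0.468 CPM in Control libraries, and its call (edgeR adjusted p = 0.049) held in 4 of 13 alternative settings, among which it was lost without Control replicate 2, Control replicate 3 or any of the miR372_3p libraries.

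Other receptors of selective autophagy had 7 higher and 8 lower of 25 (28% and 32%, median −0.019), beside 26.8% and 27.7% of all genes. RETREG1 (FAM134B), a receptor for the endoplasmic reticulum, fell to 0.841 ± 0.281 CPM in miR372_3p libraries, against 3.6 ± 0.382 CPM in Control libraries (4.29-fold, edgeR adjusted p = 8.83e-05). BNIP3L (NIX), a mitochondrial receptor, fell 1.44-fold (−0.52, edgeR adjusted p = 3.3e-06), while ATL3, a receptor for tubular endoplasmic reticulum, rose 1.36-fold. STBD1, a glycogen receptor, had 3.24, 3.52 and 5.1 CPM in miR372_3p libraries, against 8.31, 20.8 and 5.4 CPM in Control libraries. Its fall (−1.54, edgeR adjusted p = 0.0117) was −0.79 without Control replicate 2, which was high (adjusted p = 0.0181).

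Fusion and tethering genes had 5 higher and 6 lower of 24 (20.8% and 25%, median −0.003), all by less than 1.5-fold. The SNARE YKT6 (0.27) and the ESCRT ATPase VPS4B (0.25) rose, and the ESCRT subunit CHMP2A (−0.34) and the RAB7 effector RILP (−0.37) fell, the last with an adjusted p of 0.05 without Control replicate 1. The list of phosphoinositide turnover and membrane supply had 12 higher and 7 lower of 33 (36.4% and 21.2%, median 0.094). It also holds genes with other roles, such as BCL2, MCL1, DAPK1, TP53INP1 and FYCO1, so these counts are not of phosphoinositide and membrane genes alone. Among all genes 26.8% were higher and 27.7% lower. TP53INP1, which binds ATG8 proteins and is a p53 target, had 13.2, 13.0 and 13.7 CPM in miR372_3p libraries, against 2.7, 3.26 and 3.69 CPM in Control libraries (4.13-fold higher, edgeR adjusted p = 8.07e-07). FYCO1, which links LC3-bearing vesicles to kinesin, had 31.7, 31.3 and 30.9 CPM in miR372_3p libraries, against 68.7, 62.5 and 61.0 CPM in Control libraries. It fell 2.05-fold (edgeR adjusted p = 3.5e-07). ZFYVE1 (DFCP1), which marks sites of autophagosome formation, rose 1.56-fold (edgeR adjusted p = 8.73e-05). TP53INP2, which also binds ATG8 proteins, rose 1.33-fold (edgeR adjusted p = 0.00394).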

How the data were processed

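The table holds 14006 rows, of which 12396 carry an Ensembl ID and were analysed; 1610 assembled loci without a gene name, with 2.64 to 3.63% of counts, were left out. Per the file headers, the authors deposited read counts and FPKM per library, and a p-value and a log2 fold change between the groups. Named in the submitters' processing notes are HISAT2 2.0.4, StringTie 2.2.1, DESeq2 1.38.3 and GRCh38; no source used here gives the counting tool or annotation. Per the labels' protocols, libraries came from 1 µg of total RNA with a NEBNext Ultra kit.

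Counts were tested with edgeR 4.0.16 (R 4.3.3; TMM, quasi-likelihood test, no block, Benjamini-Hochberg over 12396 genes, threshold 0.05). filterByExpr removed 0 genes, and no row has under 208 counts over the 6 libraries, so low genes are not analysed here. CPM use TMM-scaled library sizes. Alternatives were DESeq2 1.42.0, other scalings and filters, left-out libraries, a replicate block and limma 3.58.1 on log2(FPKM + 0.1), the last chosen after seeing the data. Shares of the ATG8 family used deposited FPKM and exact permutation tests (scipy 1.17.1). Named genes were all autophagy genes, with values per library for those past the threshold whose log2 fold change was 0.4 or more in size and for the ATG8 family, and up to 4 genes a list; values per library of other genes were added after seeing them. The autophagy genes and lists were chosen with earlier results of these data known. Depth limits genes of a few CPM most.

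Of the 43 genes, 26 share exonic bases with another annotated gene, 9 of them more than 10% with 1 gene. These 9 are ATG101, ATG4D, ATG7, ATG9A, BECN1, GABARAP, SQSTM1, WDR45 and WIPI1, and their counts are uncertain. Counts of replicates differed beyond sampling error in every pair (chi-square divided by its degrees of freedom, 6.86 to 38.6), and none was treated as a copy of another. Every count and FPKM column was matched to a library. Some sequences and 1 marker gene are not reported here.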

Additional observations from a re-analysis of the deposited data

How the results depend on the processing

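Of the 27 autophagy calls, 21 kept their direction and passed in all 14 alternative settings that tested them, and ATG12, NBR1, OPTN, RUBCN, ULK3 and WDR45B lost the call in at least 1. Direction changed only for genes that did not pass: AMBRA1 (0.02 without miR372_3p replicate 3 and 4.6e-05 without Control replicate 2; lowest −0.03 with a library left out), ATG4A (0.02 without Control replicate 3; lowest −0.2), ATG4C (−0.05, −0.04 and −0.01 without miR372_3p replicate 3, Control replicate 1 and Control replicate 2; highest 0.17), UVRAG (0.02 without Control replicate 2; lowest −0.11), VMP1 (−0.0034 without Control replicate 3; highest 0.07) and ATG7 (0.06 in FPKM). With the replicate block, 16 autophagy genes were higher and 10 lower. Same-numbered libraries did not deviate together (correlations −0.136, −0.0517 and 0.103), so the numbers were not taken as pairs. Without each replicate in turn, 14 to 18 were higher and 8 to 11 lower. A fold of at least 1.5 left 881 higher and 1049 lower genes in the table, 2 and 1 autophagy genes, and 2 and 5 genes of the other lists. With CPM per kilobase of annotated exons in place of FPKM, the ATG8 shares in miR372_3p and Control libraries were 10.8 and 3.54% for GABARAPL1, 50.6 and 67.4% for GABARAP, 15.5 and 14.6% for GABARAPL2, 21.4 and 13.7% for MAP1LC3B, and 1.78 and 0.808% for MAP1LC3B2, so levels between genes depend on the length used while the order of the groups for each gene held.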

Other observations

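For most autophagy genes the deposited FPKM and the counts gave nearly the same fold change, which differed by at most 0.1 on the log2 scale except in ATG7. ATG7 had a log2 ratio of 0.07 in FPKM and a log2 fold change of −0.09 in counts, and 18.1% of its exonic bases are shared with VGLL4 on the opposite strand. ATG5 followed, with 0.23 in FPKM and 0.13 in counts. Ordered by mean FPKM among the 43 genes, GABARAPL1 stood at place 20 in miR372_3p libraries and at place 30 in Control libraries, and WDR45 at 10 and 17. GABARAP stood at place 5 in miR372_3p libraries and at place 2 in Control libraries, behind SQSTM1 in both.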
